A study of Mus musculus with 112 samples.

Results

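Macrophage and complement genes were followed through skin tumour progression in mice. The set was a list of 41 gene symbols: the 3 chains of complement component C1q, the colony-stimulating factor 1 (Csf1) axis, general macrophage markers, Fc gamma receptors, scavenger receptors, genes of resident and of lipid-associated macrophages, C-type lectin receptors, and the arginine-using enzymes Arg1 and Nos2. Of these, 40 were measured, each by 1 probe set with a single gene symbol, among 18772 genes in all. Spp1 was not analysed here. All 40 passed a filter on low values. By their means over mice, though, Marco, Timd4, Nos2 and Fcgr1 lay below the median of all genes in each of the 6 main tissue groups.

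The study profiled total RNA of 112 tissue pieces from 15 male mice on whole-transcript arrays, with matched skin, benign tumours, carcinomas and metastases of the same animals. The mice were the FVBBX backcross, in which F1 animals of Spretus and FVB parents were mated to FVB, so each mouse carried its own mix of alleles. At 8 weeks of age each mouse was given 1 dose of DMBA, a mutagen, followed by many doses of TPA, a tumour promoter. Primary tumours were removed by surgery above 1 cm, and all mice had metastases when killed.

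Wild-type (WT) mice numbered 9 and HrasKO mice 6, and the sources used here give neither the allele behind the HrasKO label nor the cells it affects. The dorsal skin of all 15 mice came from DMBA- and TPA-treated animals, so it was no untreated control. Papillomas were 27 arrays of 13 mice (9 WT, 4 HrasKO). Carcinomas of squamous cell (SCC) histology were 10 arrays of 8 WT mice, and carcinomas of spindle cell histology were 12 arrays of 10 mice (6 WT, 4 HrasKO). Metastases were 24 arrays of SCC histology from 11 mice (8 WT, 3 HrasKO) and 20 of spindle histology from 7 mice (3 WT, 4 HrasKO). A further 3 mixed carcinomas and 1 mixed metastasis entered no comparison of histologies. In such bulk tissue, fewer macrophages and less RNA per macrophage cannot be told apart.

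Macrophages are phagocytes that clear dead cells and microbes, present antigen and remodel tissue. Csf1, acting through its receptor Csf1r, supports their survival, and the transcription factor PU.1, encoded by Spi1, is needed for the myeloid lineage. C1q is built from A, B and C chains whose genes lie side by side. It starts the classical complement cascade on antibody-coated surfaces and marks debris for uptake, and macrophages are a main source of it. In the skin, dermal macrophages lie beside dendritic cells and mast cells, while Langerhans cells sit in the epidermis.

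PU.1 binds purine-rich sites with the core GAGGAA. RefSeq promoter windows on build GRCm38.p6, each 300 bases long from 250 before to 50 after the gene start, were at hand for 27 of the 40 members. Those of C1qb (chr4:136886151-136886450, minus strand), C1qc (chr4:136892865-136893164, minus strand), Fcgr1 (chr3:96293920-96294219, minus strand) and Csf1 (chr3:107760420-107760719, minus strand) are shown because the main differences below involve these genes. Each is written 5′ to 3′ along the gene's own strand, and capitals mark GAGGAA or its reverse complement TTCCTC.
C1qb: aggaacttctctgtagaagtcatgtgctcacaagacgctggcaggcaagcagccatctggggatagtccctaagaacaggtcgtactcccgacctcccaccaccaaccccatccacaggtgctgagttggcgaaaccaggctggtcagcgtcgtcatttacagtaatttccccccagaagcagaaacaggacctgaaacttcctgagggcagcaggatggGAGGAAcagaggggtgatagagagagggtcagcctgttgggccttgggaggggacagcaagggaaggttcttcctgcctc
C1qc: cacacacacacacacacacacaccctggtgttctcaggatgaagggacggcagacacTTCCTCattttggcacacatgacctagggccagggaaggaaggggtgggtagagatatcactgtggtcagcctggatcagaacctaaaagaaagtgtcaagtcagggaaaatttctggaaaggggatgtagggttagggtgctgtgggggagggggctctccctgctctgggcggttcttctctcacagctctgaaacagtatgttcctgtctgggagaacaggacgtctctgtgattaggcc
Fcgr1: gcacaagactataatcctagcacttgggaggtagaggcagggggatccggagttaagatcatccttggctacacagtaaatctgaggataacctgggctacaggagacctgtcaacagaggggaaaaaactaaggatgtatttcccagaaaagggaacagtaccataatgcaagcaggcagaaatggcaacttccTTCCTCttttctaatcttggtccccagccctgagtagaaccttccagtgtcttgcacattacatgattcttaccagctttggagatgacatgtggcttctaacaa
Csf1: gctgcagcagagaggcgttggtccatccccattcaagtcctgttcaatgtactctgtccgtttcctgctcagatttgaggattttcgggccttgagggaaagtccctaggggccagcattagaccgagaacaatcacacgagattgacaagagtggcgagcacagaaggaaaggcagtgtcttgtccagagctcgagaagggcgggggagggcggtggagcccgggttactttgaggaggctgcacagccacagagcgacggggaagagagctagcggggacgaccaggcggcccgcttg
The Csf1 window held no match. On either strand, GAGGAA was found in 20 of 27 members (74.1%) and in 31.3% of 27025 genes with such windows. The MAF recognition core TGCTGA was found in 8 of 27 (29.6%, against 21.7% of all genes) and the AP-1 motif TGANTCA in 5 of 27 (18.5%, against 8.97%). CACGTG, the E-box of the MITF and TFE family, was in 0 of 27 and in 8.09% of all genes, and the NF-kB motif GGGANTTCC in 0 of 27 and 1.92%. None of these motifs contains another. A match describes letters in the window and no binding was measured.

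Values are log2 intensities after the submitters' robust multi-array averaging (RMA), so a difference of 1 is a 2-fold change. Arrays of 1 mouse in 1 group were averaged first, and levels are means over mice ± SD. Differences (± SE) and adjusted p-values come from limma with Benjamini-Hochberg adjustment over all 18772 genes. A gene was called at an adjusted p under 0.05, and "rose" and "fell" are used of called genes alone.

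Most arrays had the broad profile of their label, but most SCC carcinomas were not told apart from papillomas. Against 4 classes (skin, papilloma, SCC and spindle) 22 arrays lay closest to another class. Among them were 8 of the 10 SCC carcinomas, which lay closest to papillomas. Compared with the mean profiles of skin, squamous tumours (papilloma or SCC) and spindle tumours, 12 labelled arrays lay closest to another class. These were 4 papillomas closest to spindle (2 of mouse 1815, 1 of 1508 and 1 of 1984), 1 papilloma of mouse 1407 closest to skin, the spindle carcinoma of mouse 1949 closest to squamous, and 6 SCC metastases closest to spindle (3 nodes of mouse 1706 and the lungs of 1949, 1616 and 1664). Mean keratinocyte marker levels were 11.13, 10.79, 11.35, 7.87, 9.67 and 6.27 in skin, papillomas, SCC carcinomas, spindle carcinomas, SCC metastases and spindle metastases, and leukocyte markers 9.03, 9.30, 9.46, 9.93, 10.24 and 10.38. Over mice, keratinocyte markers ranged from 6.65 to 11.56 in papillomas and from 6.15 to 11.52 in spindle carcinomas. Results that involve these arrays are given with and without them where the calls change.

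Averaged over its 40 genes, the set stood at 8.22 ± 0.65 in skin (n = 15 mice), 8.45 ± 0.69 in papillomas (n = 13) and 8.54 ± 0.63 in SCC carcinomas (n = 8). It stood at 9.34 ± 0.39 in spindle carcinomas (n = 10), 9.19 ± 0.39 in SCC metastases (n = 11) and 9.28 ± 0.18 in spindle metastases (n = 7). Means lay closer than 1 SD among the first 3 tissues, and also among the other 3. The highest skin mouse (9.29) stood above the lowest mouse of every other group.

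All 3 C1q genes had lower means in skin, papillomas and SCC carcinomas than in the other tissues. C1qa, the A chain, had lowest, median and highest mice of 8.36, 9.58 and 11.27 in skin, 8.13, 9.44 and 10.79 in papillomas and 7.58, 9.61 and 10.24 in SCC carcinomas. The same 3 values were 8.78, 11.25 and 11.72 in spindle carcinomas, 10.19, 10.79 and 11.26 in SCC metastases and 10.45, 10.85 and 11.53 in spindle metastases. SCC metastases overlapped SCC carcinomas at the ends of their ranges alone, and spindle metastases stood wholly above SCC carcinomas. Group means over the same 6 tissues were 10.54, 10.13, 10.23, 11.59, 11.37 and 11.60 for C1qb and 9.50, 9.31, 9.32, 11.02, 10.59 and 10.89 for C1qc.

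**Figure D1:**
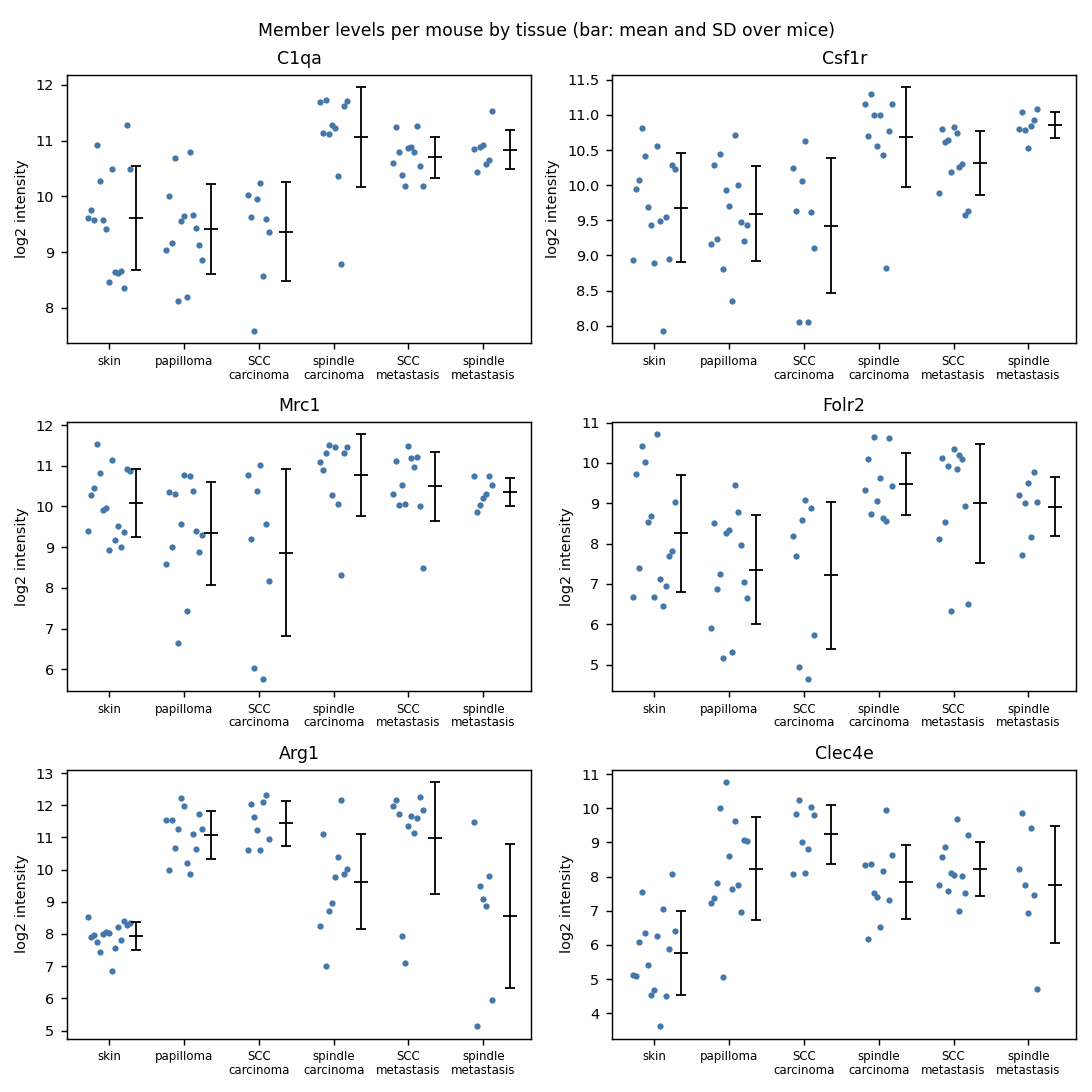
Levels of C1qa, Csf1r, Mrc1, Folr2, Arg1 and Clec4e as log2 intensity (vertical axes, each with its own range) in 6 tissue groups, 1 point per mouse, with the mean and SD over mice beside the points. C1qa means were 9.61, 9.41 and 9.37 in the first 3 groups and 11.06, 10.70 and 10.84 in the others, and Arg1 was lowest in skin (7.94).

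Arg1, an enzyme that splits arginine and marks alternatively activated macrophages, had another pattern. Its lowest, median and highest mice were 6.84, 8.00 and 8.52 in skin, 9.86, 11.26 and 12.23 in papillomas, 10.59, 11.43 and 12.33 in SCC carcinomas and 7.02, 9.82 and 12.15 in spindle carcinomas. They were 7.11, 11.65 and 12.24 in SCC metastases and 5.13, 9.08 and 11.49 in spindle metastases. Skin lay wholly below papillomas and SCC carcinomas, and spindle carcinomas and both kinds of metastasis spread widely. Among papilloma arrays its median was 11.61 in the 22 closest to squamous tumours and 9.30 in the 4 closest to spindle tumours. The 1 closest to skin was at 8.06.

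Means over the same 6 tissues are given for members with a role of their own. The ligand Csf1 was at 8.71, 8.55, 8.57, 9.80, 8.97 and 9.36 and its receptor Csf1r at 9.68, 9.60, 9.43, 10.69, 10.32 and 10.86. Adgre1, a surface receptor and classic macrophage marker, was at 8.31, 7.84, 7.89, 9.28, 8.84 and 9.48, and Mrc1, the mannose receptor, at 10.09, 9.34, 8.87, 10.77, 10.49 and 10.35. Apoe, a lipid carrier, was at 12.76, 11.91, 11.63, 12.46, 12.53 and 12.57 and Marco, a scavenger receptor, at 5.23, 5.38, 5.07, 5.01, 6.19 and 6.53. All 4 of Csf1, Csf1r, Adgre1 and Mrc1 had lower means in papillomas than in spindle carcinomas, and Marco was highest in the metastases. The general markers Lyz2 (lysozyme), Ctss (cathepsin S) and Mpeg1 (perforin-2) were at 11.26, 10.78, 10.97, 11.97, 11.88 and 12.20, at 9.43, 9.54, 9.56, 10.63, 10.74 and 10.77 and at 9.21, 9.09, 9.23, 10.19, 10.12 and 10.49. These 3 genes had higher means in spindle carcinomas and in both kinds of metastasis than in the other tissues. Cd163, the haemoglobin scavenger receptor, was at 8.33, 7.73, 6.87, 7.54, 8.16 and 6.67, with its lowest mean in spindle metastases. Of the resident genes, Timd4, a receptor for phosphatidylserine on dying cells, was at 5.48, 5.28, 5.01, 5.43, 6.06 and 6.31, Pf4 (platelet factor 4) at 8.89, 8.38, 8.65, 9.53, 8.41 and 9.14, Ms4a7 at 7.11, 7.40, 7.62, 8.68, 7.47 and 8.21 and Ms4a6d at 8.96, 9.12, 9.19, 10.31, 9.96 and 10.33. Pf4 and Ms4a7 had their highest means in spindle carcinomas.

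**Figure D2:**
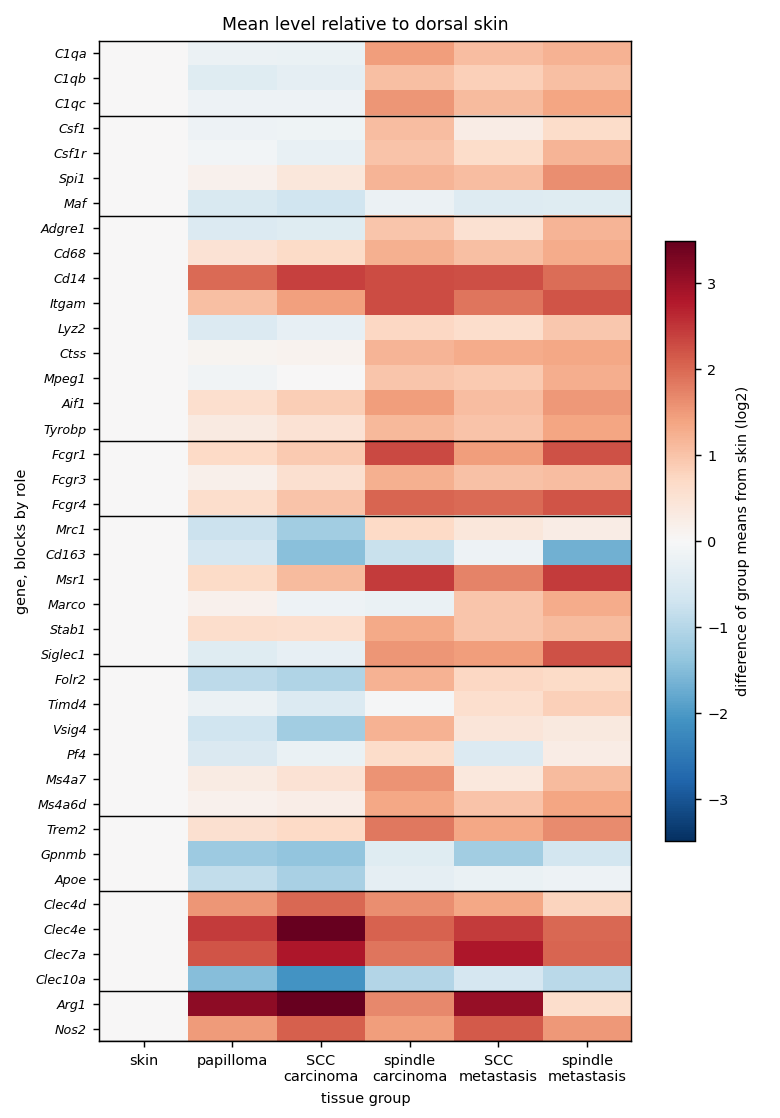
Group mean of each of the 40 members minus its mean in dorsal skin (colour scale, log2), with genes on the vertical axis in blocks by role and 6 tissue groups on the horizontal axis. Fcgr1, at 4.48 in skin and 6.77 in spindle carcinomas, is among the most strongly red, and Apoe, at 12.76 in skin and 11.63 in SCC carcinomas, is blue in every tumour group.

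Papillomas had more RNA of Arg1, Nos2 and of 3 pattern-recognition lectins than skin of the same mice, and less of Apoe, Gpnmb, Maf and Clec10a. Of the 40 members, 10 rose and 4 fell in 13 mice. Of all genes 24.5% rose and 18.1% fell, so the members' shares were near or below the background. The median difference was 0.10 for members and 0.05 for all genes.

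Arg1 stood at 7.93 ± 0.46 in skin and 11.08 ± 0.75 in papillomas and rose by 3.15 ± 0.24 in 13 of 13 mice (adjusted p = 1e-06). Whether macrophages or other cells of the pieces held the Arg1 RNA was not tested. Nos2, the inducible nitric oxide synthase, which uses the same substrate, rose by 1.44 ± 0.31 in 13 of 13 mice (adjusted p = 0.00199).

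Of the C-type lectin receptors, 3 of 4 rose. Clec4e, which senses microbial glycolipid and damaged cells, had lowest, median and highest mice of 3.61, 5.87 and 8.07 in skin and 5.06, 7.80 and 10.78 in papillomas, and the ranges overlapped. It rose by 2.33 ± 0.44 in 12 of 13 mice (adjusted p = 0.00067). Clec7a, the beta-glucan receptor dectin-1, rose by 2.25 ± 0.41 and Clec4d, a relative of Clec4e, by 1.40 ± 0.38. Clec10a, a galactose-binding lectin of dermal macrophages and dendritic cells, fell by 1.49 ± 0.42 in 9 of 13 mice.

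Among 9 general markers 3 rose: Cd14, a co-receptor for lipopolysaccharide, by 1.91 ± 0.34, Itgam, the alpha chain of complement receptor 3, by 0.98 ± 0.28, and Aif1 by 0.60 ± 0.23. Fcgr1, the high-affinity receptor for IgG, rose by 0.72 ± 0.22 and the scavenger receptor Stab1 by 0.58 ± 0.22. Adgre1 differed by -0.42 ± 0.33 and Mrc1 by -0.77 ± 0.39, and neither was called. Marco differed by 0.10 ± 0.16, Csf1 by -0.17 ± 0.24 and Csf1r by -0.10 ± 0.30.

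Apoe fell by 0.84 ± 0.12 in 13 of 13 mice (adjusted p = 5.84e-05), and its range over mice, 12.57 to 12.97 in skin and 10.97 to 12.38 in papillomas, did not overlap. Gpnmb, a glycoprotein of lipid-laden macrophages and of melanocytes, fell by 1.30 ± 0.23, also in 13 of 13. Maf, a transcription factor of resident macrophages, fell by 0.57 ± 0.10 in 12 of 13. None of the C1q genes was called (C1qa -0.22 ± 0.34, C1qb -0.42 ± 0.34, C1qc -0.20 ± 0.37) and none of the resident genes, where Folr2, a folate receptor, differed most (-0.86 ± 0.56).

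Other cell types' markers moved in the same pieces. Neutrophil markers rose in 6 of 9, with a median of 2.07 over the list, among them Trem1 by 3.21 ± 0.40 and S100a8 by 2.89 ± 0.40. Their mean level ranged from 4.90 to 7.20 over skin mice and from 7.25 to 9.12 over papilloma mice. Neutrophils also make Itgam, Cd14 and Clec4e, and their part in these rises was not tested. Mast cell markers fell in 5 of 7 and rose in 1, and dendritic and Langerhans cell markers fell in 5 of 11 and rose in 1.

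Soluble complement genes fell more often than they rose. Of classical and lectin pathway genes 3 of 8 fell (C2 by 1.62 ± 0.24, C1s1 by 0.72 ± 0.26) and 1 rose, Mbl1, by 0.14 ± 0.05. Of alternative and terminal pathway genes 3 of 7 fell (Cfb by 1.53 ± 0.33, C6 in 12 of 13 mice), and of regulators 3 of 7 (Vtn by 1.65 ± 0.27, Serping1, the C1 inhibitor, by 1.62 ± 0.21). Of complement receptors 2 of 7 rose, Itgax by 1.07 ± 0.18 and C5ar2 by 0.62 ± 0.14. Of Csf1 receptor ligands and monocyte recruitment genes 2 of 10 rose, Cx3cr1, the fractalkine receptor, by 1.52 ± 0.15 and Ccl2, a monocyte attractant, by 1.05 ± 0.19.

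With 1 mouse left out at a time 12 to 16 members were called, and 10 of the 14 were called in every alternative tried. These were Apoe, Arg1, Cd14, Clec10a, Clec4d, Clec4e, Clec7a, Gpnmb, Maf and Nos2. Without the arrays closest to another of the 3 classes 7 rose and 13 fell in 12 mice, and the median of members was -0.24. The shares of all genes given above belong to the fit with all arrays, so these counts cannot be judged against them.

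SCC carcinomas did not differ from papillomas beyond the threshold. In 8 mice no member was called by limma, and 5 had an unadjusted p under 0.05, all higher: Clec4e, Cd14, Nos2, Clec4d and Itgam. Of all genes 0.0107% rose and 0.192% fell, and 9.42% had an unadjusted p under 0.05. Clec4e differed most, by 1.05 ± 0.21 in 8 of 8 mice (adjusted p = 0.0915). C1qa, C1qb and C1qc differed by 0.09 ± 0.46, 0.31 ± 0.47 and 0.22 ± 0.48, Csf1 by 0.17 ± 0.34, Csf1r by 0.01 ± 0.42 and Arg1 by 0.35 ± 0.27. Adgre1 (0.28 ± 0.44), Mrc1 (-0.30 ± 0.79), Apoe (-0.24 ± 0.34) and Marco (-0.21 ± 0.16) were not called either. The median was 0.27 for members and 0.00 for all genes. That of members ran from 0.07 to 0.57 with 1 mouse left out. By role, the largest difference was that of C1qb among C1q (0.31 ± 0.47), Spi1 among the Csf1 axis (0.37 ± 0.29), Itgam among general markers (0.60 ± 0.25) and Fcgr4 among Fc gamma receptors (0.51 ± 0.33). It was that of Msr1 among scavenger receptors (0.75 ± 0.34), Pf4 among resident genes (0.41 ± 0.27), Apoe among lipid-associated genes (-0.24 ± 0.34) and Clec4e among C-type lectins (1.05 ± 0.21). Without the arrays closest to another of the 3 classes 1 member was called (Msr1, higher), at a median of 0.45. With 4 classes 2 mice were left, at a median of 1.17 and with 0 calls. This comparison, the one with skin and the next share papilloma arrays.

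Spindle carcinomas had more RNA of the 3 C1q chains, of the 3 Fc gamma receptors measured and of Csf1 than papillomas of the same 9 mice. Of the 40 members 16 rose and none fell, where 12.6% of all genes rose and 11.2% fell. The median difference was 0.93 for members and 0.03 for all genes, and 34 members were positive.

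C1qc rose by 1.45 ± 0.43, C1qa by 1.43 ± 0.41 and C1qb by 1.18 ± 0.36, each in 7 of 9 mice (adjusted p = 0.0353, 0.032 and 0.0385). C1qb, whose promoter is printed above with a match to GAGGAA, had lowest, median and highest mice of 8.34, 10.22 and 11.56 in papillomas and 9.86, 11.82 and 12.04 in spindle carcinomas. The ranges overlapped, with mouse 1949 the lowest of the spindle carcinomas.

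Fc gamma receptors bind antibody-coated targets. Fcgr1 had lowest, median and highest mice of 3.81, 5.12 and 6.25 in papillomas and 4.92, 7.01 and 7.81 in spindle carcinomas and rose by 1.46 ± 0.39 in 8 of 9 mice (adjusted p = 0.0262). Fcgr4 rose by 1.34 ± 0.42 and Fcgr3, the low-affinity receptor, by 1.09 ± 0.30.

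In the Csf1 axis, ligand and lineage factor were called and the receptor was not. Csf1, whose promoter window held no match, had lowest, median and highest mice of 7.28, 8.49 and 9.78 in papillomas and 8.66, 9.85 and 10.30 in spindle carcinomas. It rose by 1.16 ± 0.34 in 7 of 9 mice (adjusted p = 0.0341). Spi1 rose by 0.99 ± 0.25 in 8 of 9 mice and had the smallest adjusted p of the members (0.0211). Csf1r differed by 0.92 ± 0.34 (9.78 ± 0.65 to 10.70 ± 0.76, adjusted p = 0.0748).

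Among 9 general markers 4 rose: Itgam by 1.17 ± 0.31, Tyrobp, an adaptor of activating receptors, by 0.79 ± 0.24, Aif1 by 0.77 ± 0.22 and Cd68, a lysosomal protein, by 0.70 ± 0.21. Adgre1 differed by 1.20 ± 0.42 (adjusted p = 0.0621). Msr1, a receptor for modified lipoprotein, rose by 1.66 ± 0.44 and Stab1 by 0.79 ± 0.25, while Siglec1 (1.71 ± 0.59), Mrc1 (1.40 ± 0.60) and Marco (-0.36 ± 0.16) were not called.

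Folr2 had the largest rise of all members, 1.92 ± 0.56, and was the 1 of 6 resident genes called. Trem2, a lipid-sensing receptor that signals through Tyrobp, rose by 1.17 ± 0.32. Apoe differed by 0.43 ± 0.24 and was not called, and neither were the C-type lectins, of which Clec4e differed most (-0.32 ± 0.63). Arg1 differed by -1.30 ± 0.56, lower in 6 of 9 mice (adjusted p = 0.117).

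**Figure D3:**
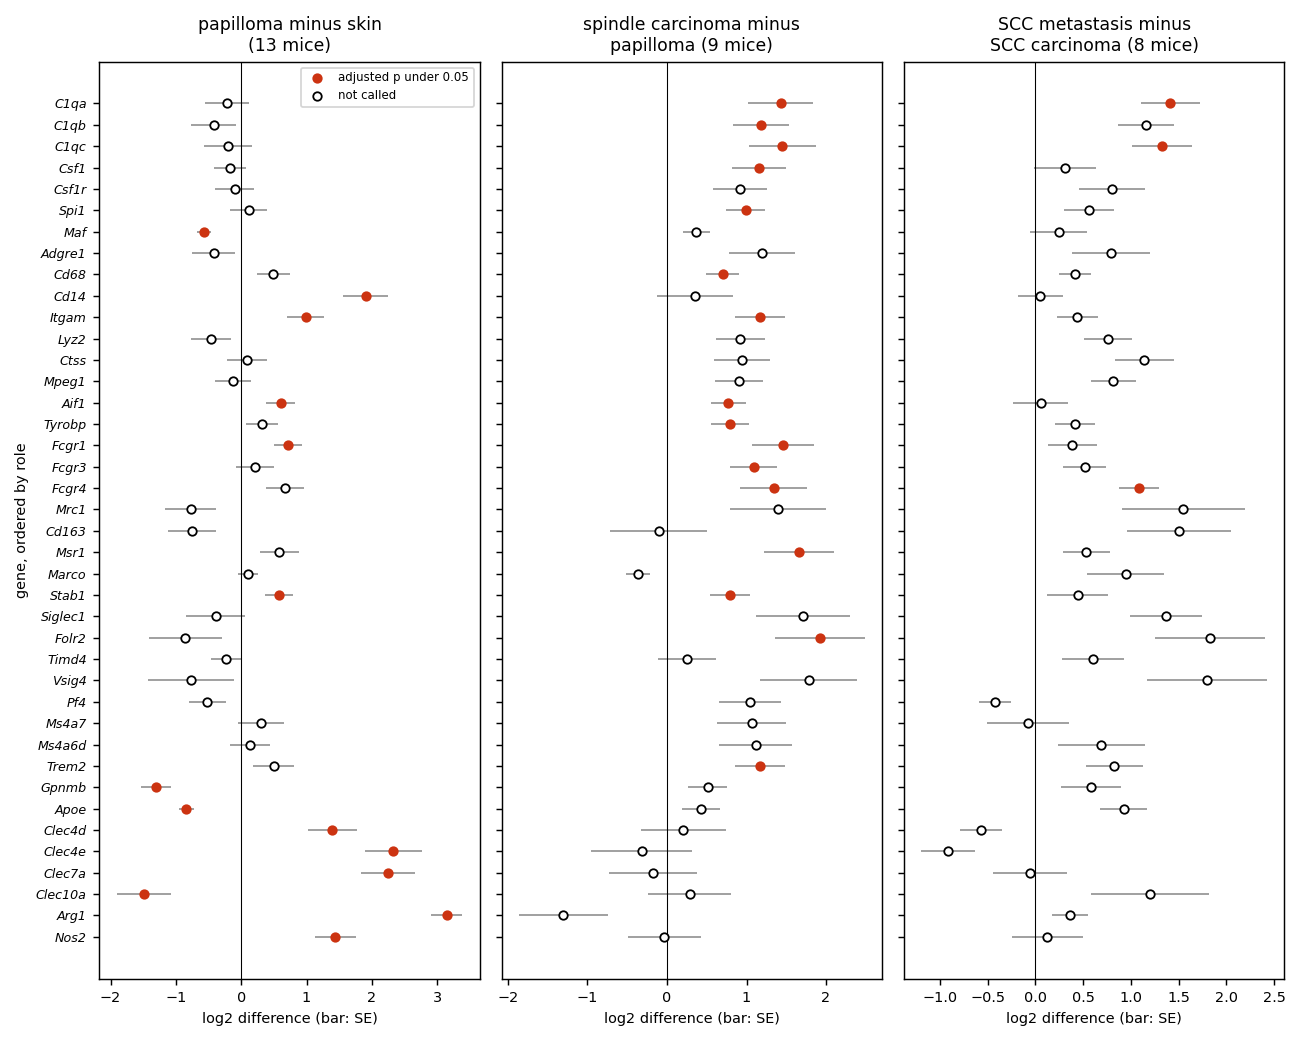
Log2 difference with SE (horizontal axes) of the 40 members in papillomas against skin, spindle carcinomas against papillomas and SCC metastases against SCC carcinomas, genes ordered by role, filled points called at an adjusted p under 0.05. In spindle carcinomas 16 points are filled, all right of 0, and Arg1 at -1.30 is open.

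The number of calls in spindle carcinomas depended on single mice. It was 0 without mouse 1383, 1 without 2022 (Spi1), 2 without 1509 (Fcgr3 and Spi1) and 2 without 1984 (Aif1 and Spi1). It was 4 without 1407 (Fcgr1, Fcgr4, Spi1 and Trem2), 4 without 1664 (Csf1, Fcgr3, Itgam and Spi1), 9 without 1508 and 27 without 1949. The median difference stayed between 0.76 and 1.13, and no called member changed sign. Calls over all genes moved too: 856 genes rose without mouse 1383 and 2800 without 1949, against 2369 with all mice. Batch 1 alone, with 8 of the 9 mice, gave 4 (Csf1, Fcgr3, Itgam and Spi1), and leaving out the carcinomas titled RegCA gave 0 in 5 mice at a median of 1.08. Without the arrays closest to another of the 3 classes 7 mice were left, and 31 members rose and 1 fell (Arg1), with a median of 1.58.

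Keratinocyte markers fell in 9 of 9 in this comparison (median -2.63, Krt5 by 3.21 ± 0.85) and melanocyte markers in 6 of 6. General leukocyte markers rose in 3 of 5 (Laptm5 by 0.79 ± 0.23), and neutrophil markers fell in 2 of 9 (S100a8 by 2.32 ± 0.61). The part of these markers' tissue in the macrophage values was not tested.

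Receptors of complement fragments rose beside C1q. Of 7 receptor genes 5 rose, among them C3ar1, the C3a receptor, by 1.43 ± 0.39 and C5ar1, the C5a receptor, by 1.31 ± 0.36. Of classical and lectin genes 1 of 8 rose (Masp1 by 1.14 ± 0.31), of alternative and terminal genes 1 of 7 (Cfp, properdin, by 1.51 ± 0.43) and of regulators 0 of 7. Of Csf1 receptor ligands and monocyte recruitment genes 5 of 10 rose, Cx3cr1 by 1.73 ± 0.44 and Ccl12 by 1.38 ± 0.43 the most. Of the 16 called members 12 had a promoter window and 10 of these held GAGGAA, against 10 of 15 among the other members.

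A direct comparison of the histologies was made in carcinomas of WT mice (spindle and SCC, 6 and 8 mice, 9 in all, with the mouse as a random block). Csf1 was 1.13 ± 0.33 higher in spindle tumours (9.70 ± 0.57 against 8.57 ± 0.68, adjusted p = 0.0493) and Itgam 0.83 ± 0.20 higher (9.91 ± 0.15 against 9.07 ± 0.47, adjusted p = 0.0279). No other member was called. Of all genes 3.47% were higher and 4.09% lower. At an unadjusted p under 0.05 there were 21 of 40 members and 23.8% of all genes. The median was 0.87 for members and 0.02 for all genes.

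C1qa differed by 1.59 ± 0.52 and C1qc by 1.56 ± 0.52, with adjusted p of 0.0753 and 0.0778. Vsig4, a complement receptor of resident macrophages, had the largest difference (2.69 ± 0.92, adjusted p = 0.0881). Arg1 differed by -1.80 ± 0.65 (9.62 ± 1.78 against 11.43 ± 0.69, adjusted p = 0.104). Csf1r (1.17 ± 0.48), Adgre1 (1.30 ± 0.47), Mrc1 (1.70 ± 0.88), Apoe (0.76 ± 0.39) and Marco (-0.01 ± 0.11) were not called. By role, Fcgr1 (1.30 ± 0.44), Siglec1 (1.89 ± 0.62), Trem2 (1.22 ± 0.36) and Clec10a (1.05 ± 0.79) differed most among Fc gamma receptors, scavenger receptors, lipid-associated genes and lectins. Keratinocyte markers were lower in 8 of 9, and of complement receptors C5ar1 was 0.91 ± 0.20 higher.

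Mouse 1949, whose spindle carcinoma lay closest to squamous tumours, weighed most. Without that mouse 23 members were higher and 2 lower (Arg1 and Clec4e). Calls over all genes grew as well, to 2339 higher and 1717 lower. Without mouse 1383, 1508, 1984, 2022 or 2104 the number called was 0, and without 1456 or 1717 it was 1 (Itgam). Without 1383, 1508, 1984, 2022 and 2104 in turn, 3, 2, 1, 45 and 250 of all genes were higher, against 652 with all mice. Those lower numbered 18, 1, 0, 144 and 455, against 767. With individual arrays 6 others were called (Arg1, C1qa, C1qc, Fcgr1, Fcgr4 and Siglec1) and Csf1 and Itgam were not. Batch 1 alone, the same fit as without 1456, gave 1 (Itgam). In this comparison the spindle carcinomas of mice 1508, 1949, 1984 and 2022 were all titled RegCA. Of the SCC carcinomas only 1, of mouse 1949, was. Histology and this title, whose meaning the sources used here do not give, thus largely went together. Leaving out carcinomas titled RegCA left spindle carcinomas of mice 1383 and 1815 alone. It gave 0 calls at a median of 0.85, with 354 of all genes higher and 637 lower. That fit had no mouse block, which could not be estimated. The part of the title in the difference between histologies was not tested. Leaving out the arrays closest to another of the 3 classes gave 19, of which 18 were higher and 1 lower (Arg1), at a median of 1.09. In that fit 2062 of all genes were higher and 1617 lower. With 4 classes, where papilloma and SCC were told apart, most SCC carcinomas fell out and 0 were called in 5 mice.

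Metastases of SCC histology had more C1q and Fcgr4 RNA than SCC carcinomas of the same 8 mice. C1qa rose from 9.37 ± 0.88 to 10.79 ± 0.36, by 1.41 ± 0.31, C1qc by 1.33 ± 0.32 and Fcgr4 by 1.09 ± 0.21, each in 8 of 8 mice (adjusted p = 0.038, 0.0472 and 0.0246). C1qb was higher in 8 of 8 mice too, by 1.16 ± 0.29, with an adjusted p of 0.0536. Of all genes 1.81% rose and 2.74% fell. The median was 0.60 for members and 0.01 for all genes.

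No other member was called. Folr2 differed by 1.83 ± 0.57, Mrc1 by 1.55 ± 0.64, Siglec1, a receptor of lymph node macrophages, by 1.37 ± 0.37 and Apoe by 0.92 ± 0.25. Csf1 (0.31 ± 0.33), Csf1r (0.80 ± 0.35), Adgre1 (0.80 ± 0.41), Marco (0.95 ± 0.40) and Arg1 (0.36 ± 0.19) were not called. Ctss differed most among general markers (1.14 ± 0.31). Of the lectins Clec10a differed most (1.20 ± 0.62), with Clec4e at -0.91 ± 0.28.

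Some markers of lymphoid tissue were also called higher in these pieces. B cell markers rose in 3 of 8 (Cd79a by 3.35 ± 0.40), and their mean ranged from 4.76 to 5.58 over SCC carcinoma mice and from 5.89 to 8.97 over SCC metastasis mice. T cell markers rose in 1 of 7. Of complement regulators 2 of 7 rose (Clu by 1.59 ± 0.27, Cfi by 1.29 ± 0.24), and C6 of the terminal pathway by 1.65 ± 0.33. The part of lymphoid tissue in the C1q values was not tested.

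These 3 calls were sensitive to single mice. Without mouse 1456, 1508 or 1984 the number was 0, without 1383 it was 1 (C1qa) and without 2022 it was 1 (Fcgr4). Of all genes 53, 182 and 103 rose without 1456, 1508 and 1984, against 339 with all mice. Without 1717 it was 2 (Clec4d and Clec4e, both lower), without 1949 it was 2 (Fcgr4 and Mpeg1) and without 2104 it was 2 (C1qa and Fcgr4). Lymph node metastases alone (6 mice) gave 0 calls at a median of 0.60, and 18 of all genes rose and 42 fell. Batch 1 alone (7 mice), the same fit as without 1456, gave 0. Leaving out the arrays closest to another of the 3 classes gave 2 calls (Fcgr4 and Mpeg1) in 7 mice at a median of 0.72. With 4 classes 2 mice were left, with 0 calls and a median of -0.30.

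Spindle metastases and spindle carcinomas of 7 mice did not differ beyond the threshold. No member was called by limma, and 0% of all genes were higher and 0% lower. At an unadjusted p under 0.05 there were 5 of 40 members and 13.3% of all genes. Siglec1 differed by 1.06 ± 0.29 in 6 of 7 mice (adjusted p = 0.303), Marco by 1.48 ± 0.65 and Arg1 by -1.59 ± 0.60. C1qa, C1qb and C1qc differed by 0.05 ± 0.28, 0.18 ± 0.22 and 0.11 ± 0.29, Csf1 by -0.48 ± 0.25 and Csf1r by 0.39 ± 0.27. By role, the largest difference was that of C1qb among C1q (0.18 ± 0.22), Spi1 among the Csf1 axis (0.51 ± 0.18), Mpeg1 among general markers (0.63 ± 0.22) and Fcgr4 among Fc gamma receptors (0.62 ± 0.33). It was that of Marco among scavenger receptors (1.48 ± 0.65), Timd4 among resident genes (0.81 ± 0.38), Apoe among lipid-associated genes (0.34 ± 0.17) and Clec4d among C-type lectins (-0.62 ± 0.38). The median was 0.08, and -0.06 to 0.15 with 1 mouse left out.

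Whether the step to metastasis differed between the histologies was tested as a difference of the changes. No member was called by limma, and 0% of all genes were higher and 0% lower. Of the 40 members 12 had an unadjusted p under 0.05, against 9.66% of all genes. These 12 were all negative (a lower change in spindle tumours). Of the 40 members 37 were negative, with a median of -0.64 against -0.00419 for all genes. C1qa differed by -1.56 ± 0.45 (adjusted p = 0.192), C1qc by -1.40 ± 0.45 and Folr2 by -2.33 ± 0.84. By role, the largest difference was that of C1qa among C1q (-1.56 ± 0.45), Csf1 among the Csf1 axis (-0.84 ± 0.39), Ctss among general markers (-1.02 ± 0.42) and Fcgr4 among Fc gamma receptors (-0.81 ± 0.47). It was that of Cd163 among scavenger receptors (-2.19 ± 1.03), Vsig4 among resident genes (-2.53 ± 1.02), Trem2 among lipid-associated genes (-0.87 ± 0.44) and Clec10a among C-type lectins (-1.35 ± 0.78). Without mouse 1949, and also without the arrays closest to another of the 3 classes, 3 members were called, all lower: C1qa, C1qb and C1qc. The same 3 were called with individual arrays. Of all genes 83 were lower without mouse 1949, 23 with the 3 classes and 26 with individual arrays, and 199, 110 and 198 were higher. The median was -0.81 to -0.45 with 1 mouse left out and -0.73 with the 3 classes, but -0.00641 with 0 calls without the arrays closest to another of 4 classes.

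Metastases of both histologies were also compared (7 spindle and 11 SCC mice, genotype as a covariate). No member was called by limma, and 0.0426% of all genes were higher in spindle metastases and 0.0266% lower. At an unadjusted p under 0.05 there were 7 of 40 members and 18% of all genes. Fcgr1 differed by 0.69 ± 0.24, Csf1r by 0.51 ± 0.18 and Arg1 by -1.95 ± 0.88. C1qa differed by 0.21 ± 0.16, Csf1 by 0.32 ± 0.28 and Adgre1 by 0.53 ± 0.29. By role, the largest difference was that of C1qc among C1q (0.36 ± 0.15), Csf1r among the Csf1 axis (0.51 ± 0.18), Adgre1 among general markers (0.53 ± 0.29) and Fcgr1 among Fc gamma receptors (0.69 ± 0.24). It was that of Cd163 among scavenger receptors (-1.35 ± 0.76), Ms4a7 among resident genes (0.80 ± 0.33), Gpnmb among lipid-associated genes (0.65 ± 0.57) and Clec7a among C-type lectins (-1.19 ± 0.60).

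By site, metastases came from lymph nodes (24 arrays, 14 mice), lungs (10 mice), liver, spleen and thymus (3 mice each), kidney (1) and dorsal tissue (1). The mean of the 40 genes was 9.25 ± 0.50 in nodes, 9.23 ± 0.26 in lung, 8.84 ± 0.54 in liver, 9.17 ± 0.37 in spleen and 9.39 ± 0.22 in thymus, which overlap. The kidney piece was at 10.37 and the dorsal piece at 8.73. Against nodes of the same mice no member was called by limma in lung, spleen, liver or thymus, and 0% of all genes were higher and 0% lower in each. At an unadjusted p under 0.05 there were 7 of 40 members in lung, 10 in spleen, 9 in liver and 2 in thymus. Of all genes 6.15%, 13%, 11.6% and 2.38% were at that threshold in these sites.

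In lung (8 mice, with histology as a covariate) Maf differed by -0.77 ± 0.16 and Stab1 by -0.88 ± 0.23, each lower in 8 of 8 mice, and Vsig4 by -1.68 ± 0.50, lower in 7 of 8 (adjusted p = 0.366, 0.533 and 0.633). Cd163 had the largest difference, -2.08 ± 1.04, and Clec10a differed by -1.95 ± 0.74. C1qa differed by -0.61 ± 0.31, Csf1r by -0.56 ± 0.34 and Arg1 by -1.28 ± 1.05. The median of members was -0.33 (-0.52 to -0.14 with 1 mouse left out) and of all genes -0.03.

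Marco, found on alveolar, liver and splenic macrophages, varied widely between pieces of a site. In lung it was at 10.31 in mouse 1616 and 9.86 in mouse 1509, and between 4.76 and 7.06 in the other 8. In liver it was at 10.38, 6.35 and 6.31, in spleen at 10.01, 7.21 and 5.14, and in thymus at 6.67, 6.39 and 4.96. Nodes had lowest, median and highest mice of 4.77, 5.23 and 8.65. Against nodes of the same mice it differed by 1.91 ± 0.32 in liver, 1.56 ± 0.45 in spleen, 1.16 ± 0.38 in thymus and 1.56 ± 0.72 in lung (adjusted p = 0.348, 0.339, 0.999 and 0.864). It was higher in 3 of 3 mice in each of the first 3 sites.

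Markers of the host organ differed too. Hepatocyte markers averaged 11.30 in liver pieces and 4.41 in nodes, and lung epithelium markers 8.26 in lung pieces (from 4.35 to 10.55 over mice) and 4.21 in nodes. Kupffer cell markers averaged 7.47 in liver and 6.34 in nodes, and red pulp macrophage markers 8.13 in spleen and 6.79 in nodes. The kidney piece stood at 7.32 for Kupffer cell and 8.32 for red pulp markers, so neither list was high in its own organ alone. The part of host tissue in the Marco values was not tested.

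In spleen, Folr2 was at 8.78, 7.60 and 5.27 and differed from nodes by -2.43 ± 0.48, and Vsig4 by -2.07 ± 0.60, both lower in 3 of 3 mice. Spi1 differed by 0.81 ± 0.14, higher in 3 of 3 (adjusted p = 0.253). In liver Clec10a differed by -1.09 ± 0.26 and Mrc1 by -1.13 ± 0.33, and in thymus Pf4 by 0.84 ± 0.26. C1qa stood at 10.50 ± 0.49 in liver, 10.66 ± 0.49 in lung, 10.44 ± 0.16 in spleen, 11.09 ± 0.43 in thymus and 10.92 ± 0.54 in nodes, with overlapping ranges.

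**Figure D4:**
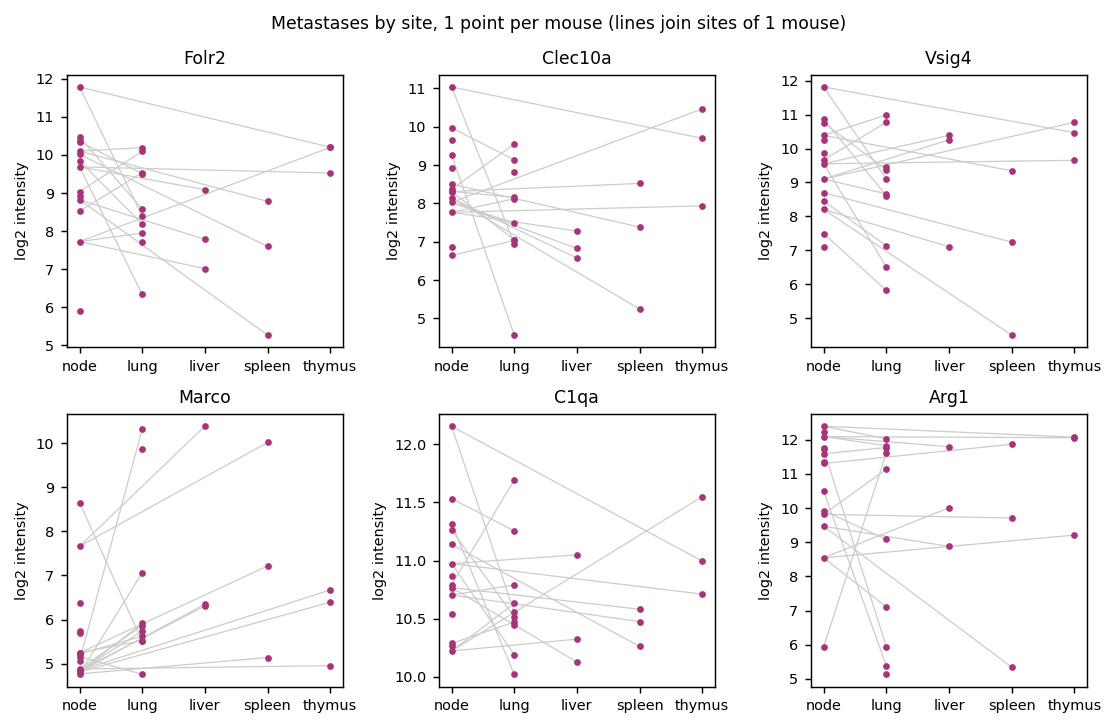
Levels of Folr2, Clec10a, Vsig4, Marco, C1qa and Arg1 in metastases as log2 intensity (vertical axes, each with its own range) at 5 sites, 1 point per mouse, with grey lines joining sites of the same mouse. For Marco, 8 of 10 lung points lie between 4.76 and 7.06 and the others at 9.86 and 10.31.

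HrasKO and WT mice did not differ beyond the threshold for any member in the 5 tissues compared, which leave out SCC carcinomas, all from WT mice (limma, batch as a covariate where it could be estimated). At an unadjusted p under 0.05 there were 2 members in skin (Clec7a 1.06 ± 0.37, Folr2 1.42 ± 0.61), 0 in papillomas, 2 in spindle carcinomas (Pf4 1.26 ± 0.36, Clec4e -1.43 ± 0.52) and 4 in spindle metastases (Clec7a 2.39 ± 0.64, Msr1 0.70 ± 0.22, Lyz2 0.40 ± 0.12, Nos2 0.93 ± 0.32). Of all genes 11%, 5.11%, 3.33% and 2.1% were at that unadjusted threshold in skin, papillomas, spindle carcinomas and spindle metastases. At an adjusted p under 0.05, 0.00533% of all genes were higher and 0% lower in HrasKO skin and 0% and 0.00533% in papillomas. The shares were 0% and 0% in spindle carcinomas, and 0% and 0% in spindle metastases. C1qa differed by 0.13 ± 0.48, -0.11 ± 0.49, 0.19 ± 0.64 and -0.19 ± 0.30 in these tissues. The change from skin to papilloma differed between genotypes for no member, with 0% of genes higher and 0% lower. At an unadjusted p under 0.05 there were 2 members (Timd4 -1.27 ± 0.42 and Gpnmb 1.00 ± 0.45) and 7.56% of all genes.

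In SCC metastases (3 HrasKO and 8 WT mice) 3 of 40 members had an unadjusted p under 0.05 (Arg1, Lyz2 and Timd4), against 12.6% of all genes. At an adjusted p under 0.05, 0.0479% of all genes were higher and 0.107% lower. Arg1 was at 7.11, 7.94 and 11.35 in HrasKO mice 1664, 1616 and 1706 and between 11.14 and 12.24 in the 8 WT mice. It differed by -2.82 ± 0.69 (adjusted p = 0.155), and was the 1 member called without mouse 1706. The low values came from lung pieces, at 7.11 in mouse 1664 and 5.39 in mouse 1616, whose node was at 10.49. Both lung arrays were closest to spindle tumours. The 3 node arrays of HrasKO mouse 1706 were closest to spindle tumours too, at 10.76 to 11.87. The 5 lung pieces of WT mice were at 11.14 to 12.03, the lowest being that of mouse 1949, also closest to spindle tumours. The lung pieces of the 2 HrasKO mice were the lowest of the 24 arrays. The parts of site and profile in them were not tested.

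Csf1 and Csf1r, ligand and receptor, were set against each other across mice within each of the 6 tissues (Pearson r and Spearman rho, two-sided permutation p, Benjamini-Hochberg adjusted over the 6). In skin r = 0.79 and rho = 0.88 (n = 15, permutation p = 0.00014 and 6e-05, adjusted 0.00084 and 0.00036). In papillomas r = 0.83 and rho = 0.83 (n = 13, permutation p = 0.00064 and 0.00074, adjusted 0.00192 and 0.00222). In SCC carcinomas r = 0.89 and rho = 0.76 (n = 8, exact permutation p = 0.00774 and 0.0368, adjusted 0.0116 and 0.0551), and in SCC metastases r = 0.80 and rho = 0.84 (n = 11, permutation p = 0.00346 and 0.0026, adjusted 0.00692 and 0.0052). Without the 2 mice farthest from the median of Csf1, r was 0.71, 0.74, 0.94 and 0.63 in these 4 tissues.

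In spindle tumours no such relation was detected. In spindle carcinomas r = 0.61 and rho = -0.21 (n = 10, permutation p = 0.194 and 0.558, adjusted 0.233 and 0.67). Without the 2 mice farthest from the median r was -0.58. The pooled r rested on mouse 1949, at 8.66 for Csf1 and 8.82 for Csf1r, since r was -0.62 without its array. In spindle metastases r = 0.22 and rho = 0.04 (n = 7, exact permutation p = 0.644 and 0.963, adjusted 0.644 and 0.963). Within batch 1 alone r was 0.79, 0.86, 0.89, 0.66, 0.83 and -0.05 in skin, papillomas, SCC carcinomas, spindle carcinomas, SCC metastases and spindle metastases, and batch 2 held too few mice for a value. The difference between tissues in this relation was not tested.

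**Figure D5:**
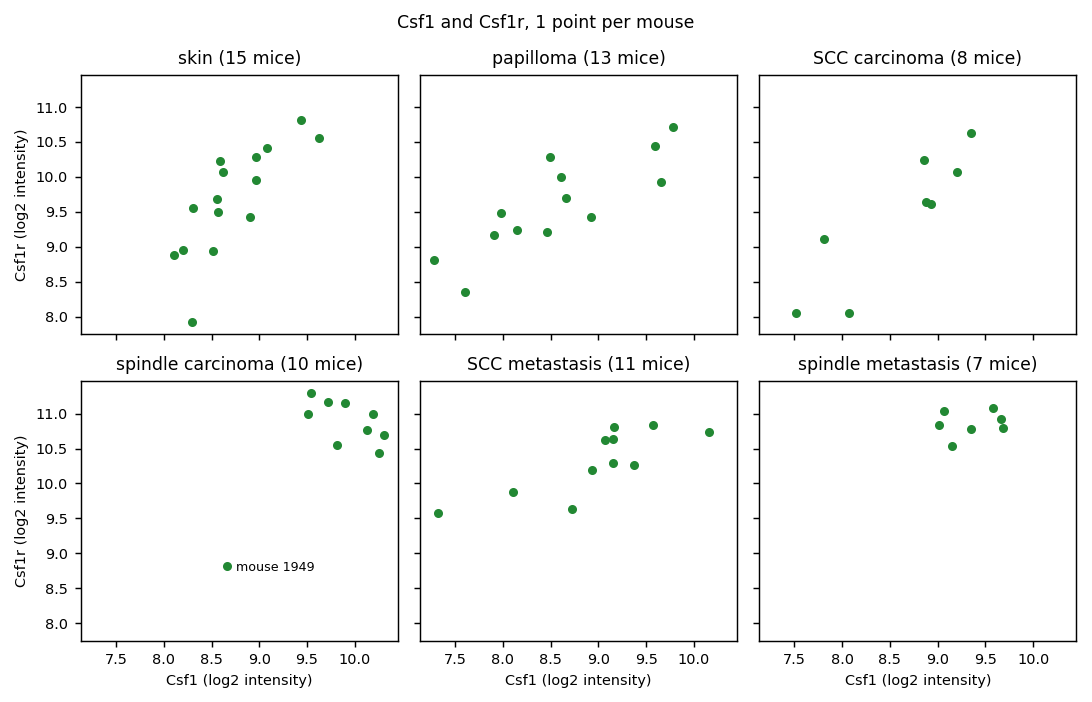
Csf1 (horizontal axes) and Csf1r (vertical axes) as log2 intensity in 6 tissue groups, 1 point per mouse. Points lie along a rising line in skin (r = 0.79) and papillomas (r = 0.83), and in spindle carcinomas mouse 1949 lies alone at 8.66 and 8.82.

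Tumours of the same mouse differed widely. In the 11 mice with several papillomas the mean of the 40 genes spanned 0.01 to 3.28 within a mouse (median 0.71), and mouse means spanned 2.24. The median span within a mouse was 0.62 in SCC metastases (7 mice) and 0.38 in spindle metastases (5 mice). Among papilloma arrays, C1qa ran from 8.06 to 10.65 in the 22 closest to squamous tumours and from 10.78 to 11.64 in the 4 closest to spindle tumours, and Csf1r from 7.88 to 10.60 and from 10.66 to 11.51. These ranges did not overlap. Those of C1qb (8.34 to 11.53 and 11.53 to 12.10), C1qc (7.62 to 10.83 and 10.74 to 11.56), Cd68 (9.47 to 11.30 and 10.98 to 11.73) and Arg1 (10.19 to 12.45 and 8.67 to 10.64) met or overlapped. The 1 papilloma array closest to skin had C1qa at 10.73, between both ranges, and Csf1r at 11.03, within that of the spindle-like arrays. The classes were drawn from the same arrays, members included, so these values are a description.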

How the data were processed

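Whole-transcript arrays of 112 tissue pieces of 15 mice were used. The deposited values are log2 intensities that the authors made by RMA, per the submitters' processing notes. Sources used here give no RMA version and no batch correction. Array medians ran from 5.889 to 6.357. Of 28204 probe sets 21141 had 1 gene symbol, 1881 several and 5182 none, and each of 18772 genes was represented by its probe set of highest mean. No 2 arrays held the same values (highest correlation 0.9941).

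Arrays of a mouse in a group were averaged, since the mouse is the replicate, and fitted with limma 3.58.1 (lmFit and eBayes, R 4.3.3, Benjamini-Hochberg over all genes). The mouse was a fixed block within mice, a random block (duplicateCorrelation) for spindle against SCC tumours, and genotypes were compared with batch as a covariate. The shared mouse, given in the labels, pairs the samples. There were 95 arrays of 13 mice in batch 1, and 17 of 2 mice in batch 2. The script was tested on simulated data. The members and lists were chosen with earlier results of these data known. Named in each comparison were, per role, up to 3 called members with the largest change, or the 1 with the largest where none was called, and C1qa, C1qb, C1qc, Csf1, Csf1r, Adgre1, Mrc1, Arg1, Apoe and Marco in every group. Site and genotype comparisons, which had no calls, name fewer. Other called members were named after their values were seen. Alternatives changed the block, the unit, the probe set rule, the low-value filter, normalization, batch, arrays standing apart, sites and single mice; leaving out arrays closest to another of 3 broader classes was added after seeing the data. Correlations were tested by permutation, exact or with 100000 resamples (scipy 1.17.1).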

Additional observations from a re-analysis of the deposited data

Results flagged for a closer look

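A mouse far from the others of its group was looked for with Dixon's test at 95% in the 4 groups of 4 to 10 mice: SCC carcinomas, spindle carcinomas, spindle metastases and lung metastases. Skin, papillomas, SCC metastases and node metastases hold more mice, and the other sites fewer, and were not tested. With the 40 genes and their mean this made 164 sets, of which 19 held such a mouse. The sets are not independent, since they share mice and the mean is made from the 40 genes. The 19 can therefore not be set against the 1 in 20 that chance gives for a single set. Most were the spindle carcinoma of mouse 1949, the array closest to squamous tumours, which stood below the other 9 mice. It was lowest for C1qa (8.78, next mouse 10.37), C1qb (9.86, next 11.10) and C1qc (8.76, next 10.42). In the Csf1 axis it was lowest for Csf1 (8.66, next 9.51) and Csf1r (8.82, next 10.43). Among general markers and receptors it was lowest for Cd68 (9.999), Lyz2 (10.52), Mrc1 (8.31), Msr1 (7.64) and Trem2 (6.97). It was also lowest for Ms4a6d (8.54), Ms4a7 (6.70) and the mean of the 40 genes (8.43).

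In lung metastases mouse 1717 stood lowest for Clec10a (4.57) and highest for Clec7a (10.94), and mouse 1616 lowest for Gpnmb (7.59). Fcgr4 was lowest in the SCC carcinoma of mouse 1984 (4.84) and highest in the spindle metastases of mouse 1509 (8.70). Maf was highest in the spindle metastases of mouse 1984 (11.004).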

How the results depend on the processing

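Of 335 alternative counts of calls 286 stayed within 1.5 times the reported count, 27 were lower and 22 higher. The 286 include comparisons with 0 calls that stayed at 0. Of the alternatives other than leaving out a mouse, 9 of 9 stayed within that bound in papillomas against skin. In spindle carcinomas against papillomas 5 of 10 did. It was 4 of 10 in spindle against SCC carcinomas and 4 of 10 in SCC metastases against SCC carcinomas. Of 704 alternative values of called members 508 kept the call, 196 lost it and 0 reversed. Some alternatives are the same fit and were counted separately. Batch 1 alone equals leaving out mouse 1664 for spindle carcinomas against papillomas. It equals leaving out mouse 1456 for spindle against SCC carcinomas and for SCC metastases against SCC carcinomas. Where individual arrays were fitted, the mouse was a random block, so the unit changed and, within mice, the kind of block with it. Causes of the changes were not tested. In papillomas against skin, leaving out 1 mouse gave 12 to 16 calls (14 with all), and the other alternatives 12 to 20. Spindle carcinomas against papillomas (16 calls) gave 28 with individual arrays and a random block, 4 in batch 1 alone, 32 without arrays closest to another of 3 or 4 classes, 0 without RegCA carcinomas, and 0 to 27 with 1 mouse left out. Of all genes 2369 rose in the main fit and 3880, 934, 4551 and 0 in the first 4 alternatives named. Spindle against SCC carcinomas (2) gave 6 with individual arrays, with neither Csf1 nor Itgam among them, 5 after repeated quantile normalization, 1 in batch 1 alone, 0 and 19 without arrays closest to another of 4 and 3 classes, 0 without RegCA carcinomas and without the mouse block, which could not be estimated there, and 0 to 25 with 1 mouse left out. SCC metastases against SCC carcinomas (3) gave 6 without the replicate block, 7 with individual arrays and a random block, 5 with the low-value filter, 0 in batch 1 alone, 0 without arrays closest to another of 4 classes, 0 with nodes alone, and 0 to 2 with 1 mouse left out.

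Comparisons with 0 calls gained some in these cases: SCC carcinomas against papillomas 1 (3 classes); spindle against SCC metastases 1 (Arg1; 3 or 4 classes, or nodes alone, each also without the mouse block, which could not be estimated there); lung against node 1 (Maf; without the replicate block, or individual arrays); spleen against node 1 (Fcgr4; individual arrays); HrasKO against WT SCC metastases 0 to 1 (1 mouse left out); the metastatic change 3 (individual arrays, or 3 classes) and 0 to 3 (1 mouse left out). Thymus against node was not run in batch 1 alone. The block changed no other count by over 1.5 times. The r of Csf1 with Csf1r lost its call in SCC carcinomas without 2 mice (0.94, 6 mice) and reversed in spindle carcinomas without 2 mice (-0.58) or without the array of mouse 1949 (-0.62), and in spindle metastases in batch 1 alone (-0.046). The number of arrays limits the precision.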
